A study of Glycine max with 16 samples.

Results

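Leaves of watered A004A plants, a transgenic soybean (Glycine max) line over-expressing the transcription factor gene GmWRKY54, were compared with leaves of watered null plants, the control line that the labels also call B001A. Genes listed at 1 RPKM or more in either column were kept, which left 32199 of the 56044 genes of the deposited table. RPKM are read counts scaled by gene length and by the number of mapped reads of a library. Sums of RPKM still differ between columns, at 658317 in watered A004A and 747688 in null, and some counts below depend on the scaling. Differences are given as log2(RPKM + 1) in A004A minus the same in null, and a gene is counted as higher or lower when this reached 1, a 2-fold difference on that scale. The other columns are A005B and B010C, which are further over-expression lines, and the same 4 lines after the seedlings, 2 weeks old, had been dried in air for 6 h. Seeds were germinated on soil in a sunlit greenhouse, and trifoliate leaves were harvested. The labels give neither the promoter of the transgene nor the number of plants behind a sample, and the age and harvest time of the watered plants are not stated separately.

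The table holds 1 column of values for the 2 samples that the labels list per group. A difference between columns therefore has no replicate check, no p-value is given, and nothing below has been tested. Nor is it known whether each line is 1 transformation event, so a difference between A004A and null cannot be told apart from other differences between those plants. The number of reads behind each column is unknown.

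WRKY proteins are plant transcription factors that bind a short DNA element, the W-box, in the promoters of their target genes. They are known from responses to pathogens, from leaf senescence and from responses to water shortage, in which some of them act through the hormone abscisic acid. The study's title and design text set over-expressing plants against null plants, watered and dehydrated, and the watered comparison shows how such a line differs without drying. The table gives identifiers without names, and the gene table at hand matched 0 of them. Genes are therefore described by identifier, levels and behaviour, no pathway could be followed, and leaf markers could not be checked. No sequence could be shown for the same reason.

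In some genes the line that was high together with A004A differed between watered and dehydrated leaves. In 39 of the 32199 compared genes, watered null and A004A both exceeded A005B and B010C by 2-fold or more. After drying, A004A and A005B both exceeded null and B010C by as much in these genes. By the same 2-fold measure, 2 genes had A004A and A005B above null and B010C in both treatments. There were 0 genes with null and A004A above the others in both. Other pairings of lines over both treatments are not given here. Of the 39 genes, 13 are among the 345 counted below as higher in A004A than in null, and 0 among the 550 counted as lower. One of these 2 genes is Glyma.10G011300, which no source at hand pairs with GmWRKY54 or any other name. It was at 51.1 RPKM in watered A004A, 11.5 RPKM in null, 73.0 RPKM in A005B and 9.05 RPKM in B010C. In dehydrated leaves it was at 119 RPKM in A004A, 11.7 RPKM in null, 238 RPKM in A005B and 18.03 RPKM in B010C. If watered A005B takes the place of watered null, A004A is at least 2-fold above it in 548 of 32165 genes and below it in 670. Whether columns were exchanged or mixed was not tested.

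Most transcripts stood at similar levels in both columns. The difference was under 1.5-fold in 89.9% of the genes, and its median was -0.01. Higher in A004A by 2-fold or more were 345 genes (1.07% of those compared), and lower by as much were 550 genes (1.71%). At least 4-fold differences were counted for 68 higher and 46 lower genes. The distance between the watered lines A005B and B010C, which share no column with this comparison, gives a yardstick. Between them, A005B was at least 2-fold higher in 330 of 31504 genes (1.05%) and lower in 212 (0.673%). These lines thus stood apart in 542 genes, the fewest of the 6 watered pairs, against 895 for A004A and null. A005B and null stood apart in 829 genes and B010C and null in 612, so a count near 895 was not particular to A004A and null. Watered A004A was farther from A005B, at 1218 genes, and from B010C, at 1211, than from null. The kept gene closest to the limit of 1 RPKM was at 1.00 RPKM in null and 0.592 RPKM in A004A, and the closest one left out was at 0.9997 and 0.754 RPKM.

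**Figure D1:**
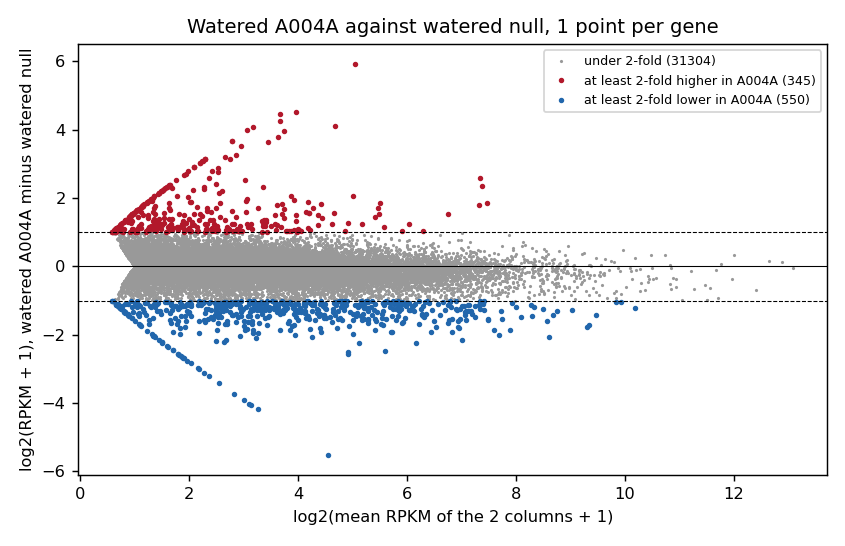
Each point is 1 of the 32199 genes. The horizontal axis is log2(mean RPKM of the 2 columns + 1), the vertical axis is the log2(RPKM + 1) difference of watered A004A minus watered null, and dashed lines mark 2-fold. Higher genes (345) lie mostly at low levels and lower genes (550) reach the highest levels, and the slanted edges at the left are genes listed at 0 in one column.

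Lower genes were more abundant than higher genes. Higher genes had a median of 4.35 RPKM in A004A, and 187 of the 345 stayed under 5 RPKM there. Low levels were common among all 32199 compared genes too. By the mean of watered A005B and B010C, 11376 of them lay between 1 and 5 RPKM and 1897 under 1 RPKM. Lower genes had a median of 16.8 RPKM in null, and 82 of the 550 stood at 100 RPKM or more, against 6 of the higher genes. To sort genes by abundance without using the columns compared, bands were set on the mean of watered A005B and B010C. Of 986 genes at 100 RPKM or more by that measure, 0 were higher and 71 (7.20%) were lower in A004A. Between 20 and 100 RPKM 19 of 5425 genes were higher (0.350%) and 168 lower (3.10%). Between 5 and 20 RPKM 71 of 12515 were higher (0.567%) and 154 lower (1.23%). Between 1 and 5 RPKM 91 of 11376 were higher (0.800%) and 95 lower (0.835%). Genes under 1 RPKM by that measure entered only through A004A or null, so their counts, 164 higher and 62 lower of 1897, are partly set by the filter. At 100 RPKM or more, lower genes outnumbered higher ones under every scaling tried, with 69 lower and 0 higher genes when columns were scaled by median ratios, 50 and 4 when their quantiles were made equal, and 53 and 1 when each column was scaled to the same sum. Between 5 and 20 RPKM the order turned with equal sums, to 115 higher and 111 lower genes.

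The general level of abundant genes was less firm. The median difference of genes at 100 RPKM or more was -0.22 in the RPKM themselves, -0.21 with median-ratio scaling and -0.043 with equal sums. It was 0.025 with equal quantiles, which makes the level distributions of the columns alike by construction. With equal sums the median of all genes moved to 0.15, and the overall split turned to 645 higher and 452 lower genes. Among genes at 5 RPKM or more in either column the split was 158 higher and 427 lower. Watered A004A has the smallest sum of RPKM among the watered columns, 658317 against 747688 in null, 738209 in A005B and 718038 in B010C, and the part of this in the trend was not tested. The 100 genes most abundant in A005B and B010C made up 19.2% of all RPKM in A004A and 21.0% in null. Of these 100, 79 stood below null in A004A by any amount, and 8 were at least 2-fold lower. In A005B 44 of them stood below null by any amount, and in B010C 47.

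The most abundant genes that were at least 2-fold lower kept measurable and often high levels. Glyma.15G251500 stood at 699 RPKM in watered A004A, against 1617 RPKM in null, 1343 RPKM in A005B and 1620.0 RPKM in B010C. After drying it was at 1103 RPKM in A004A, 2146 RPKM in null, 1269 RPKM in A005B and 2028 RPKM in B010C. A004A was thus the lowest column in both treatments, with a log2 difference from null of -1.21 watered and -0.96 dehydrated. Glyma.12G024700 was at 635 RPKM in watered A004A and at 1317, 1063 and 1227 RPKM in null, A005B and B010C. In dehydrated leaves the gene was at 419 RPKM in A004A, 759 RPKM in null, 464 RPKM in A005B and 868 RPKM in B010C. Both genes came inside 2-fold with equal quantiles, at differences of -0.84 and -0.74, and Glyma.12G024700 also with equal sums, at -0.87.

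Among genes at 1 RPKM or more in both columns and at 10 RPKM or more in the higher one (12637 genes), the lowest differences were those of Glyma.13G035000 and Glyma.16G085600. Glyma.13G035000 was listed at 7.76 RPKM in watered A004A, 50.7 RPKM in null, 13.5 RPKM in A005B and 33.3 RPKM in B010C. In dehydrated leaves it was at 9.08, 41.1, 3.23 and 161 RPKM in the same order. Its low values were thus shared by A004A and A005B in both treatments, and the A004A value is the same to all printed digits as that of 5 other genes in that column. Glyma.16G085600 was at 8.04 RPKM in watered A004A and at 50.1, 52.1 and 57.3 RPKM in null, A005B and B010C. When dehydrated it was at 99.4 RPKM in A004A, 212 RPKM in null, 92.2 RPKM in A005B and 122 RPKM in B010C. Watered A004A was the column that stood apart, 6.23 times below null. Of the 10 lowest genes by this rule, watered A004A lay at least 2-fold below the other 3 lines in 7, and 4 were also at least 2-fold lower than null after drying, as were 14.6% of all genes at 10 RPKM or more in either watered column.

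The highest differences under the same limits were those of Glyma.13G130600 and Glyma.09G278000. Glyma.13G130600 was at 47.4 RPKM in watered A004A, 1.81 RPKM in null, 0.402 RPKM in A005B and 0.0664 RPKM in B010C. In dried leaves it stood at 34.5 RPKM in A004A and 54.2 RPKM in A005B, with 0.433 RPKM in null and 0.170 RPKM in B010C. It was therefore high in both A004A columns and in dehydrated A005B, and low in the other 5 columns. Glyma.09G278000 was at 274 RPKM in watered A004A, 45.0 RPKM in null, 4.74 RPKM in A005B and 4.10 RPKM in B010C. After drying it was at 282 RPKM in A004A, 570.1 RPKM in A005B, 5.28 RPKM in null and 3.04 RPKM in B010C. The order of the lines was the same for both genes. Of the 10 highest genes by this rule, 4 were also 2-fold or more above null in dehydrated A004A, and 3 were 2-fold or more below it, where 1.22% and 14.6% of all genes at 10 RPKM or more were. The most abundant higher genes were Glyma.09G188800 and Glyma.18G210900. Glyma.09G188800 stood at 277 RPKM in watered A004A, 75.7 RPKM in null, 52.1 RPKM in A005B and 4.51 RPKM in B010C, and between 4.72 and 10.6 RPKM in the 4 dehydrated columns. Glyma.18G210900 stood at 276 RPKM in watered A004A, 53.6 RPKM in null, 16.3 RPKM in A005B and 16.2 RPKM in B010C, and at 373, 138, 574 and 130.2 RPKM after drying in the same order. The first was lower in every dehydrated column except that of B010C. The second was highest in A004A and null when watered, and in A005B and A004A after drying.

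**Figure D2:**
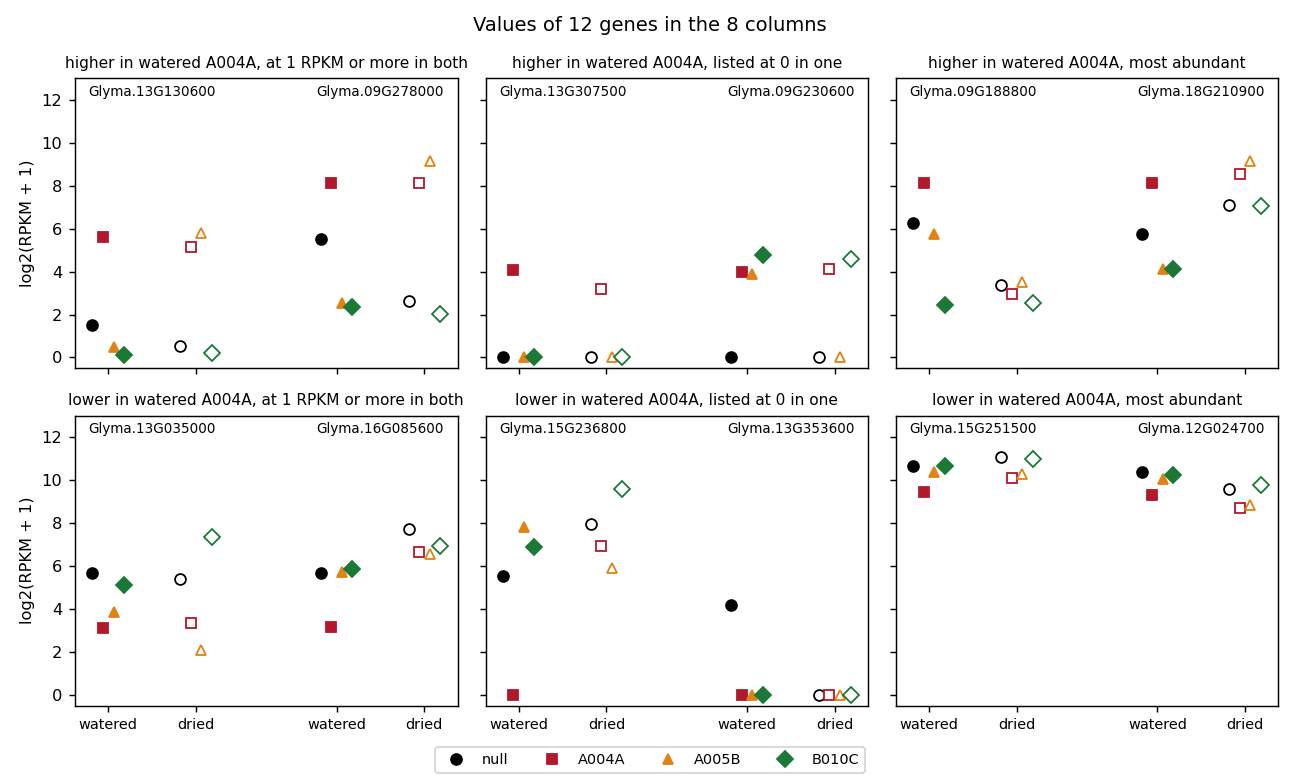
Values of 12 genes as log2(RPKM + 1) on the vertical axis in the 8 columns, with filled symbols for watered and open symbols for dried leaves (labelled dehydrated elsewhere) and 1 symbol shape per line. Glyma.13G130600 and Glyma.09G278000 are high in A004A in both treatments and in A005B only when dried, and Glyma.15G236800 is at 0 in watered A004A alone.

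The gene with the highest difference of all lies outside the rule, because its null value was above 0 but below 1 RPKM, and it is named here after its values were seen. Glyma.10G043100 was at 63.9 RPKM in watered A004A, 0.0601 RPKM in null, 0.140 RPKM in A005B and 0.0850 RPKM in B010C. In dehydrated leaves the gene was at 40.6 RPKM in A004A, 67.5 RPKM in A005B and 0.107 RPKM in null, and was listed at 0 in B010C. Its log2 difference from null was 5.93 watered and 5.23 dehydrated. There were 11 genes of this kind, with 10 RPKM or more in A004A and between 0 and 1 RPKM in null, and 0 genes of the reverse kind.

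These genes belong to a larger group. In 178 genes watered A004A lay at least 2-fold above the other 3 watered lines. These groups were defined after the values had been seen. In 50 of the 178 (28.1%), dehydrated A004A and dehydrated A005B both lay at least 2-fold above dehydrated null and B010C, a pattern that 0.637% of all compared genes showed. Dehydrated A005B alone lay at least 2-fold above the rest in 13 of the 178 (7.3%, against 0.121% of all genes), and dehydrated A004A alone in 3 (1.69%, against 0.0932%). In the other direction, dehydrated A004A alone lay below the rest in 5 of the 178 (2.81%, against 0.394%), A005B alone in 2 (1.12%, against 0.183%) and both together in 3 (1.69%, against 0.621%). The choice of the 178 genes used no dehydrated column, and it does not depend on which of the other watered columns is null. All 11 genes of the kind of Glyma.10G043100 were among the 50. Median levels of the 50 were 9.89 RPKM in watered A004A, 0.648 RPKM in null, 0.158 RPKM in A005B and 0.0840 RPKM in B010C. In dehydrated leaves the medians were 5.43 RPKM in A004A, 10.2 RPKM in A005B, 0.0843 RPKM in null and 0.0513 RPKM in B010C. Medians were thus below 1 RPKM in 5 of the 8 columns, though single genes reached higher there, up to 138 RPKM in dehydrated null. Which columns are high and which low was set by the choice of the 50 genes, so these medians are a description. In 45 of the 50 genes dehydrated A005B stood above dehydrated A004A, with a median ratio of 1.71. In 39 of the 50 watered null stood above both watered A005B and B010C. The shares of all compared genes with these orders are not given here, so neither count is read as a trait of the group. Over all compared genes the median dehydrated difference from null was -0.26 in A004A and -0.11 in A005B, so A005B leaned higher in general. The identifiers of the 50 genes fall on 18 chromosomes, with at most 8 on one. Of 208 genes in which watered A004A lay at least 2-fold below the other 3 lines, 10 (4.81%) had dehydrated A004A and A005B both at least 2-fold below null and B010C, against 0.621% of all compared genes. Dehydrated A005B alone was below the rest in 3 of the 208 (1.44%, against 0.183%) and A004A alone in 1 (0.481%, against 0.394%).

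**Figure D3:**
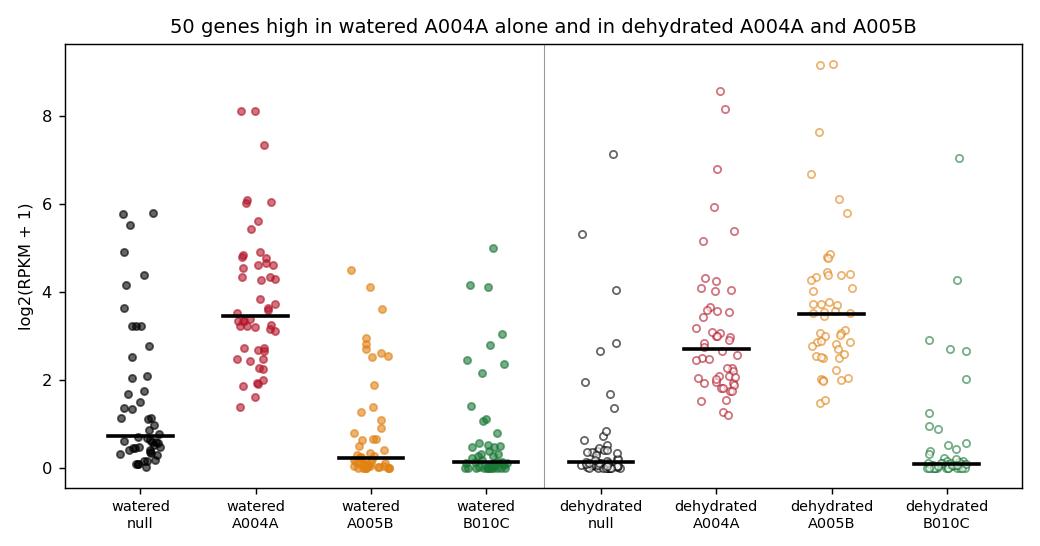
Levels of the 50 genes as log2(RPKM + 1), with 1 point per gene in each of the 8 columns and a bar at the median, filled for watered and open for dehydrated leaves. The median RPKM is 9.89 in watered A004A, 5.43 in dehydrated A004A and 10.2 in dehydrated A005B, and at most 0.648 in the other 5 columns. The choice of the genes set which columns are high and which low.

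Genes absent from one column made up part of the difference. Of the 345 higher genes, 103 were listed at 0 in null, at a median of 2.13 RPKM in A004A, and 52 of these were listed at 0 in A005B and B010C too. Of the 550 lower genes, 69 were listed at 0 in A004A, at a median of 2.34 RPKM in null, and 29 were at 0 in the other 2 lines as well. Zeros were uneven over the whole table too, with 12720 genes at 0 in watered null and 11913 in watered A004A. There, 1918 genes were at 0 in null and above 0 in A004A, and 1111 the reverse. An exact 0 can be a failed estimate, so no fold is given. Glyma.13G307500 was at 15.9 RPKM in watered A004A and at 7.996 RPKM in dehydrated A004A, and was listed at 0 in the other 6 columns. Glyma.09G230600 was at 14.8 RPKM in watered A004A, 13.7 RPKM in A005B and 26.3 RPKM in B010C and listed at 0 in null, and after drying at 16.2 RPKM in A004A and 23.1 RPKM in B010C and at 0 in null and A005B. The first was thus listed above 0 in the A004A columns alone, and in the second null was the watered column that stood apart. Glyma.15G236800 was listed at 0 in watered A004A alone, against 45.0 RPKM in null, 223 RPKM in A005B and 118 RPKM in B010C. In dried leaves it stood at 121 RPKM in A004A, 246 RPKM in null, 58.6 RPKM in A005B and 769 RPKM in B010C. Glyma.13G353600 was at 17.1 RPKM in watered null and listed at 0 in the other 7 columns. Of the 5 genes with the highest null values among those at 0 in A004A, null stood at least 2-fold apart from the other 3 watered lines in 4. In those 4 watered A005B and B010C were listed at 0 as well, so the zeros set that result. Over all 550 lower genes null stood apart in 51.

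The further watered lines mostly stood on the side of null. The mean of their log2 values was placed on the way from null to A004A for each gene. Among higher genes it lay in the third of that distance nearest null, or beyond null, in 220 of 345 (63.8%), and in the third nearest A004A, or beyond it, in 73 (21.2%). Among lower genes the numbers were 321 of 550 (58.4%) and 118 (21.5%). By construction, the 52 higher genes listed at 0 in null, A005B and B010C counted as nearest null. The 29 lower genes listed at 0 in A004A, A005B and B010C likewise counted as nearest A004A. Of the 345 higher and 550 lower genes, watered A004A lay at least 2-fold outside the other 3 lines in 178 and 208. Null did so in 33 and 51. The 52 genes are among these 178, and the 29 among these 51.

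Dehydrated columns, which took no part in choosing the genes, showed part of the same differences. Of the 345 genes higher in watered A004A, 87 (25.2%) exceeded null by 2-fold or more in dehydrated A004A, against 1.71% of all compared genes, and 35 (10.1%) were lower, against 8.24%. Of the 550 lower genes, 167 (30.4%) were at least 2-fold lower, against that same 8.24%, and 15 (2.73%) were higher. Median dehydrated differences were 0.14 for higher, -0.59 for lower and -0.26 for all genes. Among genes at 10 RPKM or more in the higher watered column, 30 of 89 higher genes kept a 2-fold difference in the same direction. So did 124 of 346 lower genes (35.8%). At that level 1.22% of all genes were higher and 14.6% lower, so lower genes stood closer to the share of all genes. Median dehydrated differences fell with abundance in watered A005B and B010C, from 0.086 under 1 RPKM to -0.77 at 100 RPKM or more. Dehydrated A004A has the smallest sum of RPKM of the 8 columns, 636011 against 785735 in dehydrated null. The part of this in these counts was not tested. The dehydrated A005B column, set against the same dehydrated null column, was at least 2-fold higher in 87 of the 345 (background 1.93%) and lower in 150 of the 550 (background 3.18%). In B010C the counts were 45 of 345 (background 1.22%) and 36 of 550 (background 0.938%), with 47 of the 550 at least 2-fold higher. The comparisons of dehydrated A004A, A005B and B010C share their null column, so their counts are not independent of each other.

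**Figure D4:**
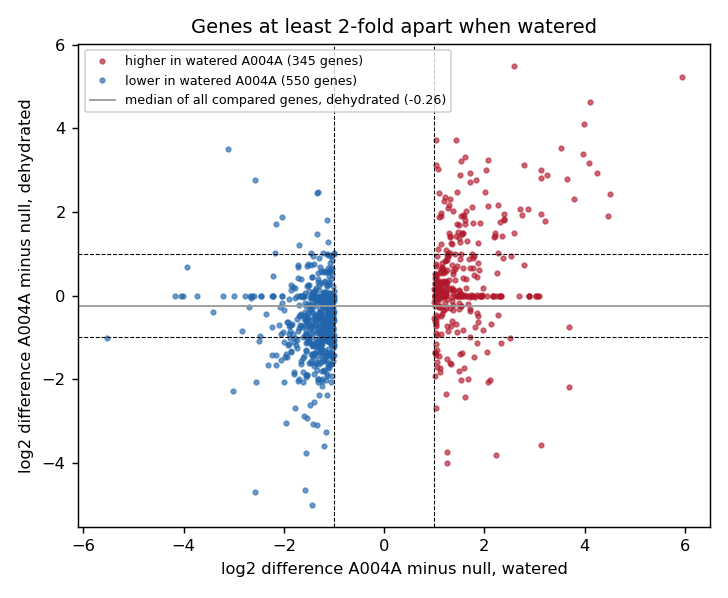
Each point is a gene at least 2-fold apart between watered A004A and watered null. The horizontal axis is the watered and the vertical axis the dehydrated log2 difference of A004A minus null, dashed lines mark 2-fold, and the grey line is the median of all compared genes (-0.26). Of the lower genes 167 of 550 fall below the lower dashed line, and of the higher genes 87 of 345 lie above the upper one.

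The response to drying of the same genes was read from A005B and B010C, so that neither column of the comparison was used. Of the 345 higher genes, 114 (33.0%) were at least 2-fold higher after drying in A005B, against 13.6% of all compared genes, and 78 (22.6%) in B010C, against 13.9%. At least 2-fold lower after drying were 83 (24.1%) in A005B, against 25.1%, and 68 (19.7%) in B010C, against 24.8%. Of the 550 lower genes, 128 (23.3%) were higher and 203 (36.9%) lower after drying in A005B, and 154 and 168 (30.5%) in B010C. Among genes at 10 RPKM or more in the higher watered column, 33 of 89 higher genes were at least 2-fold higher after drying in A005B (10.9% of all genes at that level) and 34 were lower (34.7%). In B010C these numbers were 17 (12.1% of all) and 33 (32.7%). Of the 346 lower genes at that level, 76 were higher and 145 lower after drying in A005B, and 91 and 119 in B010C. At both levels the share with higher values after drying was above that of all genes in both lines, whereas the share with lower values was below it, near it or above it depending on the level and the line. The labels give no watered plants held for the same 6 h, so drying and elapsed time cannot be told apart.

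Differences were spread over the genome as far as the identifiers, which carry a chromosome number, show it. The share of higher genes lay between 0.724% and 1.54% on the 20 chromosomes and that of lower genes between 1.32% and 2.28%, and chromosome medians stayed between -0.04 and 0.01. An exception on a smaller scale was a run of 20 compared genes with neighbouring identifiers, from Glyma.13G015400 to Glyma.13G024200. It is the window of 20 genes whose median lay farthest from 0 among 31819 such windows, so its watered median of -0.72 chose it and is a description. In this run 19 genes were lower in watered A004A than in null, and 1 of them at least 2-fold. In dehydrated leaves, which the choice did not use, 19 of the 20 were higher in A004A, with a median of 1.36 where all genes had -0.26. At least 2-fold higher were 17 of the 20, against 1.71% of all compared genes. The 20 genes are neighbours, so these counts are not independent of each other. Glyma.13G021100, the gene of the run with the highest value in any column, named after its values were seen, was at 537 RPKM in watered A004A, 824 RPKM in null, 1150.2 RPKM in A005B and 890.3 RPKM in B010C. After drying it was at 2727 RPKM in A004A, 747 RPKM in null, 277 RPKM in A005B and 954 RPKM in B010C. For this gene A004A was the lowest column in watered and the highest in dehydrated leaves, and A005B the reverse. Medians of the response to drying over the run were 1.90 in A004A, -0.33 in null, -1.71 in A005B and 0.15 in B010C. The window farthest from 0 between watered A005B and B010C overlapped the same run, so its variation was not particular to the comparison of A004A with null. Apart from the 20 genes, 10 genes followed the mean log2 level of the run over the 8 columns at a Pearson r of at least 0.95, out of 35881. Of these, 9 also lay on chromosome 13, which holds 2308 of the 32199 compared genes. Their identifiers go from Glyma.13G011500 to Glyma.13G020100, so they lie before the run or between its genes.

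**Figure D5:**
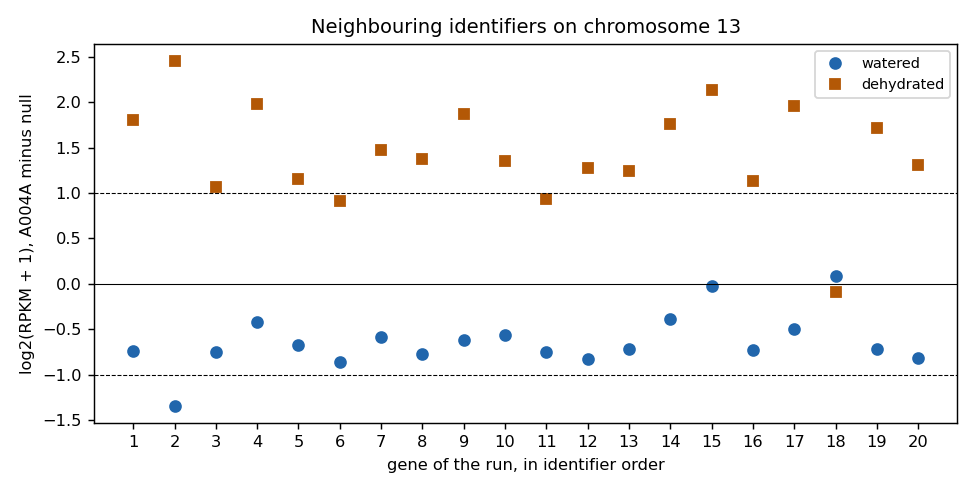
The 20 genes of the run on chromosome 13 in identifier order along the horizontal axis, with the log2(RPKM + 1) difference of A004A minus null on the vertical axis, circles for watered and squares for dehydrated leaves. In 19 genes the watered value lies below 0, and in 19 the dehydrated value lies above it.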

How the data were processed

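RNA of soybean leaves was sequenced in 16 samples, 2 for each of 4 lines in 2 treatments. The values are RPKM as the authors deposited them, in 8 columns, 1 per line and treatment, and each column was tied to its group by its name, the labelled line and the sample titles. Per the submitters' processing notes TopHat was used. Its version, the read counter, the build and the way in which the 2 samples of a group became 1 column were not given in the sources used. Depth is unknown, and the sums of RPKM per column lay between 636011 and 818267.

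From these values log2(RPKM + 1) differences were computed with Python 3.11.15 and pandas 2.3.3, over genes with at least 1 RPKM in either column, which understates the change of low genes. The code was first tested on simulated columns with known folds. A difference of 1 or more was counted, and no test was run because each group has 1 column. Alternatives were a pseudocount of 0.1 RPKM, a minimum of 5 RPKM, no filter, median-of-ratios scaling, quantile normalization and scaling to equal sums of RPKM, each over the 4 columns of a treatment, or over all 8 for the response to drying.

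Named genes were the 2 highest and 2 lowest among genes with at least 1 RPKM in both columns and 10 RPKM in the higher, the 2 with the highest value on each side among genes at 0 in the other column, and the 2 most abundant ones at least 2-fold apart on each side. They are the first of longer lists of 10, 5 and 5, cut short because identifiers carry no names. The planned gene lists, marker check and promoter motifs could not be built without names and were left out. The comparison and the lists were chosen with earlier results of these data known, and the group of 50 genes, the bands of abundance and the run on chromosome 13 were chosen after the values had been seen.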

Additional observations from a re-analysis of the deposited data

Results flagged for a closer look

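A difference between A004A and null that points in opposite directions in watered and in dehydrated leaves drew attention in 3 places. None of these differences between treatments was tested, since each rests on 1 column per group. Among the 10 genes with the highest watered difference at 1 RPKM or more in both columns, 3 were at least 2-fold lower than null in dehydrated A004A, as were 14.6% of all genes at 10 RPKM or more. Among the 5 genes with the highest watered A004A values that were listed at 0 in null, 1 was at least 2-fold lower than null in dehydrated A004A, as were 8.24% of all compared genes, so 1 of 5 does not stand out. The run of 20 neighbouring identifiers on chromosome 13 had a median difference of -0.72 watered and 1.36 dehydrated.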

How the results depend on the processing

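No paired analysis was possible because the table has no column per replicate, and no replicate could be left out. With a pseudocount of 0.1 RPKM, 774 genes were higher and 945 lower, 1017 were apart between watered A005B and B010C, 447 higher and 482 lower genes had the other lines in the third nearest null, watered A004A alone stood above the rest in 331 genes, of which 106 had the dehydrated pattern of A004A and A005B, and the median response of higher genes to drying in A005B and B010C turned from 0.13 to -0.24. At 5 RPKM in either column, 158 genes were higher and 427 lower, 294 were apart between A005B and B010C, dehydrated medians were -0.72 for lower and -0.40 for all genes, and drying medians were 0.31 for higher and -0.47 for lower genes, against -0.21 as deposited. Median-of-ratios scaling gave dehydrated medians of -0.38 for lower and -0.058 for all genes, and drying medians of -0.047 for lower and -0.090 for all genes. Quantile normalization gave dehydrated medians of 0.28, -0.37 and -0.047 for higher, lower and all genes, and a watered median of 0.025 for genes at 100 RPKM or more. With equal sums of RPKM, 645 genes were higher and 452 lower, watered A004A alone stood above the rest in 281 genes, the watered median of all genes was 0.15, dehydrated medians were -0.39 for lower and -0.023 for all genes, and the drying median of higher genes was 0.0. With watered A005B in the place of null, 548 genes were higher. The causes were not tested. The number of genes with the dehydrated pattern of A004A and A005B was 52, 56 and 69 under the 3 scalings, against 50. The 38 genes on the naming lists were recomputed under that pseudocount and the 3 scalings, equal sums having been added after the data were seen. Of 152 values, 147 kept their direction and side of 2-fold, and 5 fell inside it, 3 with quantile normalization and 2 with equal sums. Without replicates or read numbers, no difference here can be set against an error.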
